A study of Mus musculus with 6 samples.

Results

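The AMP-activated protein kinase (AMPK) senses the energy charge of the cell, and its 7 subunit genes were examined with Stk11, the gene of its main upstream kinase. The 8 genes were chosen by symbol from a table of 23314 genes, and each was found on 1 row. RNA sequencing had measured quadriceps, a thigh muscle, of mice aged 2 months. The MyoCre group carried 1 copy of a Cre recombinase driven by Myogenin (Myogenin-Cre/+), a gene of differentiating muscle, and had 3 libraries. The K15SKO group carried the same Cre with both copies of Klf15 floxed (Myogenin-Cre/+;K15F/F) and also had 3 libraries. Both groups thus share the Cre. By genotype they differ in the floxed copies of Klf15, to be deleted in muscle cells that expressed the Cre. The labels do not say which cells of the tissue the Cre reached. The design text gives n = 4, and 3 libraries a group were analysed here. The labels do not state that each library is a separate animal, so the p-values reflect only how these samples spread, which may be technical.

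AMPK is a complex of a catalytic alpha subunit, a scaffolding beta subunit that can bind glycogen, and a gamma subunit that binds AMP, ADP and ATP. It is switched on when ATP runs low and the upstream kinase LKB1, the product of Stk11, or a calcium-dependent kinase phosphorylates its alpha subunit. Active AMPK promotes glucose uptake and fatty acid oxidation and restrains synthesis of lipid and protein. Each subunit has isoforms from separate genes, and skeletal muscle is known for alpha2, beta2 and, in fast glycolytic fibres, gamma3.

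Levels are given in FPKM, which divides the fragments of a gene by its transcript length and by the library total, so that genes can be compared within a library. In muscle of the control mice the catalytic and scaffold subunits came almost wholly from 1 isoform each. In K15SKO the muscle isoforms Prkab2 and Prkaa2 stood at lower mean levels, Prkag3 at a higher one, and none of the 8 genes passed the test across all genes. Libraries K15SKO 1 and 2 carried most of the difference in Prkab2 and Prkag2, whereas K15SKO 3 stood at or near the MyoCre level for both. Markers of satellite cells and regenerating fibres followed the same libraries, with a median of 1.22, 0.98 and 0.10 on the log2 scale against the MyoCre mean in K15SKO 1 to 3, and their part in these differences was not tested.

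The promoters of Prkab2 and Prkaa2, the members with the largest differences downward, are shown because both genes stood lowest in the same K15SKO libraries. The sequences are from RefSeq on build GRCm38.p6 and end before the annotated gene start. Capitals mark matches, on either strand, to CACCC and to the GC box GGGCGG, short motifs of the kind that Krüppel-like factors such as Klf15 are known to bind.
Prkab2, chr3:97657962-97658192, plus strand: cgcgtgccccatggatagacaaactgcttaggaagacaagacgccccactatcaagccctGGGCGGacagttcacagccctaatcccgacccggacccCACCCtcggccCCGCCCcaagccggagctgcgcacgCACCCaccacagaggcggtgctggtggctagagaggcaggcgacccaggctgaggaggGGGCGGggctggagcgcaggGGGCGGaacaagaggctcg
Prkaa2, chr4:105109899-105110148, minus strand: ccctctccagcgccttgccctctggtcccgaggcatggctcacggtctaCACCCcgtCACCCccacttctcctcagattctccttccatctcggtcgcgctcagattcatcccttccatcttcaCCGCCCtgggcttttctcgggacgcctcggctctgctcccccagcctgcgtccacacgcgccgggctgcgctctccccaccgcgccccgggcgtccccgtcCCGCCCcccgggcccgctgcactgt
The Prkab2 stretch of 231 bases held 2 matches to CACCC and 4 to GGGCGG. The Prkaa2 stretch of 250 bases held 2 of each. Over all 32851 promoter windows of 250 bases, 52.0% held CACCC and 32.7% held GGGCGG on either strand, so such matches are frequent. All 8 members had a window, 10 in all, since Prkag2 had 3. The windows of Prkag3 and Stk11 held neither motif, and the other 8 windows held at least 1 of them. The share of all windows with either motif was not computed, so this count stands without a comparison. The window of Prkag3 and some of those of Prkag2 lie wholly inside the annotated gene, so the windows are not alike. A match describes letters and is no evidence of binding, and an FPKM for a whole gene does not say which start was used.

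Klf15, the targeted gene, lies on chromosome 6 and measured 35.2, 28.4 and 30.5 FPKM in MyoCre 1 to 3, against 2.22, 21.7 and 5.32 FPKM across K15SKO 1 to 3. The K15SKO libraries were all lower, and K15SKO 2 had the most Klf15 transcript among them. K15SKO 2 was also the library with the most liver transcript, whose part in its Klf15 value was not tested. The value covers the whole gene, and the position of the floxed part is not given in the labels. Column sums of the table were 396375 to 466756 FPKM, and the depth of the libraries read from steps between low values was 0.78 to 1.57 times that of MyoCre 1. K15SKO 3 correlated at 0.97 with each MyoCre library over the genes tested and at 0.94 and 0.88 with K15SKO 1 and 2. Transcripts typical of muscle fibres were present in every library, with Myh1 listed at 0 in K15SKO. The 15 macrophage markers summed to 47.4 to 56.7 FPKM in MyoCre and to 406, 232 and 44.2 FPKM in K15SKO 1 to 3. Of the 15, 2 were higher in every K15SKO library than in any MyoCre library, beside 13.4% of all genes tested. That share over all genes also stands beside the counts of liver and regenerating fibre markers that follow. Of 15 liver markers 13 were higher in every K15SKO library than in any MyoCre library, among them Alb, whose K15SKO values were 21.1, 2203 and 4.36 FPKM beside control values of 0.30 to 1.13 FPKM. The liver sums were 27.8 to 69.3 FPKM in MyoCre, most of it Cyp2e1, and 75.0, 6130 and 18.6 FPKM in K15SKO 1 to 3. The liver gene Cps1 was at 0 in all MyoCre libraries, and no macrophage marker was at 0 in a whole group. Of 6 measured markers of satellite cells and regenerating fibres, 3 were higher in every K15SKO library than in any MyoCre library and none was at 0 in a whole group. Their sums were 10.9 to 21.9 FPKM in MyoCre and 63.8, 50.2 and 15.8 FPKM in K15SKO 1 to 3. Myog was at 31.9, 27.3 and 3.90 FPKM there, against 1.84 to 2.36 FPKM in MyoCre, and the embryonic myosin Myh3 at 12.2, 9.29 and 0.35 FPKM, against 0.17 to 0.20 FPKM. In tissue RNA, fewer cells of a type and less RNA per cell cannot be told apart.

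**Figure D1:**
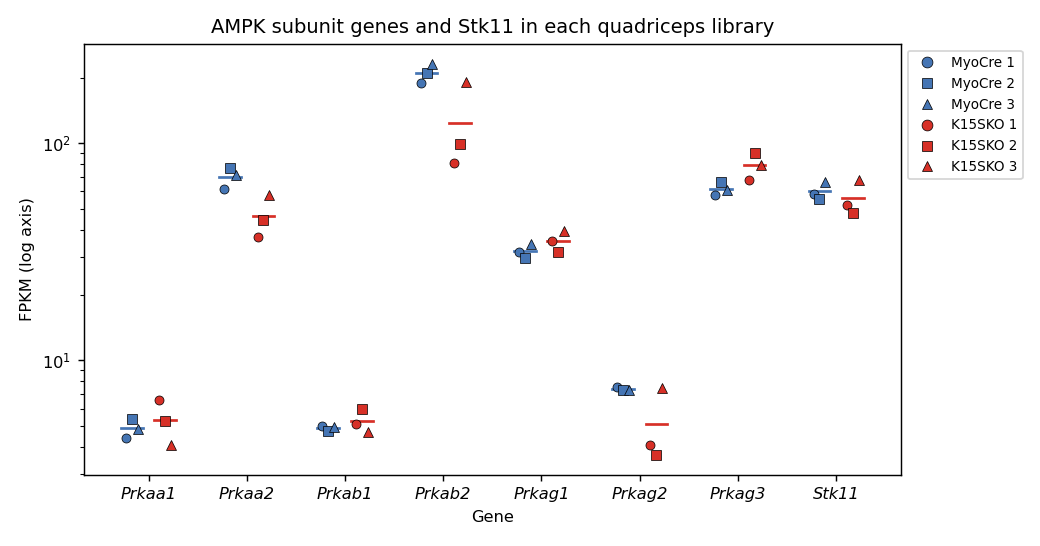
FPKM on a log axis of the 8 genes in each library, with MyoCre in blue, K15SKO in red, symbols for replicates 1 to 3 and a line at each group mean. Prkab2 is the most abundant member in both groups, and its K15SKO 3 value of 192 FPKM lies among the MyoCre values of 190 to 233 FPKM.

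The catalytic subunit alpha2 is encoded by Prkaa2 on chromosome 4 from 105029874 to 105109890 (minus strand, GRCm38). Prkaa2 measured 61.4, 76.6 and 71.5 FPKM in MyoCre 1 to 3, against 37.0, 44.5 and 57.7 FPKM across K15SKO 1 to 3. All 3 K15SKO libraries stood below all 3 MyoCre libraries, with K15SKO 3 the nearest to them. The group means were 69.8 ± 7.74 and 46.4 ± 10.5 FPKM (SD, n = 3 each). The difference on the log2(FPKM + 1) scale was −0.60 (SE 0.18, 95% interval −1.04 to −0.15), with a limma adjusted p of 0.272 and an exact two-sided permutation p of 0.1, the smallest that 3 against 3 libraries allow. With K15SKO 3 left out the difference was −0.76 (limma adjusted p = 0.0198). Over 17 alternatives the adjusted p ran from 0.0198 to 0.585. The sign was the same in all of them, though some leave the difference itself unchanged by construction.

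Prkaa1 encodes alpha1, the catalytic isoform found in most tissues, on chromosome 15 from 5143861 to 5181899 (plus strand). It measured 4.37, 5.38 and 4.84 FPKM in MyoCre 1 to 3, against 6.59, 5.24 and 4.09 FPKM across K15SKO 1 to 3. The groups overlapped, with the highest and the lowest of the 6 values both in K15SKO. The difference was 0.09 (SE 0.16, 95% interval −0.31 to 0.48, limma adjusted p = 0.759). It was −0.05 without K15SKO 1, the library with the most macrophage marker transcript and the highest Prkaa1. The part of those cells in the Prkaa1 value was not tested.

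Prkaa2 supplied 93.4% to 93.7% of the FPKM of the alpha pair in MyoCre. Its share was 84.9%, 89.5% and 93.4% in K15SKO 1 to 3, so K15SKO 1 and 2 stood below the narrow MyoCre range and K15SKO 3 within it. As a ratio of levels, Prkaa2 exceeded Prkaa1 by 14.0, 14.2 and 14.8 times in MyoCre and by 5.62, 8.50 and 14.1 times in K15SKO. The log2 ratio was 3.84 ± 0.04 in MyoCre and 3.13 ± 0.67 in K15SKO (SD, n = 3 each), a difference of −0.71 with overlapping groups. Without K15SKO 3 the difference was −1.05, and without K15SKO 1 it was −0.39. The summed alpha level was 65.8, 82.0 and 76.3 FPKM in MyoCre and 43.6, 49.7 and 61.8 FPKM in K15SKO, with no overlap.

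The scaffold subunit beta2 is encoded by Prkab2 on chromosome 3 from 97658193 to 97673812 (plus strand). It holds the alpha and gamma subunits together and carries the glycogen-binding module. Prkab2 measured 190, 212 and 233 FPKM in MyoCre 1 to 3, against 80.8, 99.6 and 192 FPKM across K15SKO 1 to 3. K15SKO 1 and 2 stood at 38.2% and 47.1% of the MyoCre mean, and K15SKO 3 at 91.0%, just above the lowest MyoCre library. The group means were 211 ± 21.6 and 124 ± 59.7 FPKM (SD, n = 3 each). The difference was −0.86 (SE 0.32, 95% interval −1.62 to −0.09), with a limma adjusted p of 0.287 and an exact two-sided permutation p of 0.2. Without K15SKO 3 it was −1.22 (SE 0.14, limma adjusted p = 0.00799), and the lowest and highest adjusted p over 17 alternatives were 0.00799 and 0.585.

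Prkab1, the gene of the widely expressed beta1, lies on chromosome 5 from 116013586 to 116024508 (minus strand). It measured 4.99, 4.73 and 4.94 FPKM in MyoCre 1 to 3, against 5.11, 5.95 and 4.68 FPKM across K15SKO 1 to 3, which overlapped. Its highest value was in K15SKO 2, the library with the most liver transcript, whose part in that value was not tested. The difference was 0.08 (SE 0.11, 95% interval −0.17 to 0.34, limma adjusted p = 0.664).

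Prkab2 made up 97.4% to 97.9% of the beta pair in MyoCre and 94.1%, 94.4% and 97.6% in K15SKO 1 to 3. It was 38.0, 44.7 and 47.2 times the Prkab1 level in MyoCre and 15.8, 16.7 and 41.1 times in K15SKO. Beta2 thus remained the predominant transcript in every library, at a smaller excess in K15SKO 1 and 2. The log2 ratio was 5.43 ± 0.16 in MyoCre and 4.47 ± 0.77 in K15SKO (SD, n = 3 each), a difference of −0.96, which was −1.41 without K15SKO 3.

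**Figure D2:**
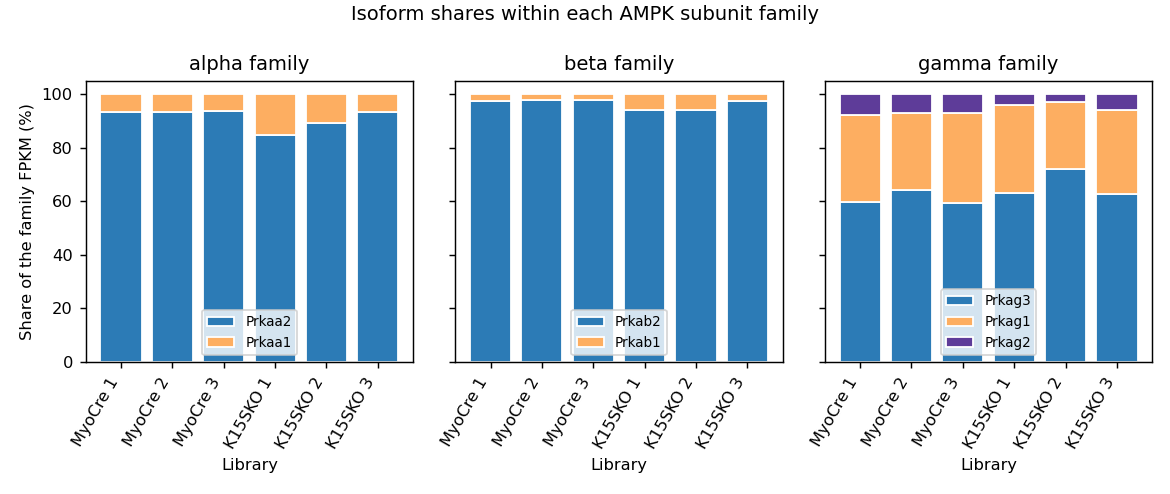
Percent of the summed FPKM of each subunit family contributed by each isoform gene, 1 bar per library, for the alpha, beta and gamma families. The Prkaa2 share falls outside the MyoCre range of 93.4% to 93.7% in K15SKO 1 and 2, and the Prkag2 share is smaller in each K15SKO library than in any MyoCre library. In K15SKO 3 the Prkag2 level itself lies within the MyoCre range.

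The gamma family was spread over 3 genes. Prkag3, the gamma3 gene of fast glycolytic fibres, lies on chromosome 1 from 74738922 to 74749221 (minus strand). It measured 57.9, 66.4 and 60.7 FPKM in MyoCre 1 to 3, against 67.6, 90.7 and 79.4 FPKM across K15SKO 1 to 3. Every K15SKO value lay above every MyoCre value, but K15SKO 1 exceeded MyoCre 2 only narrowly. The group means were 61.7 ± 4.33 and 79.2 ± 11.5 FPKM (SD, n = 3 each). The difference was 0.35 (SE 0.14, 95% interval 0.01 to 0.69), with a limma adjusted p of 0.297 and an exact two-sided permutation p of 0.1. It was 0.25 without K15SKO 2, the library with the highest value, and the adjusted p ran from 0.0517 to 0.585 over 17 alternatives.

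Among 11 markers of fast glycolytic fibres, 1 stood higher in each K15SKO library than in any MyoCre library and 2 stood lower. That 1 is Pvalb, listed at 0 in MyoCre and at 5041 to 15958 FPKM in K15SKO. The 2 are Gpd1 and Myh1, the latter listed at 0 in K15SKO and at 350 to 505 FPKM in MyoCre. Gpd1 alone thus separated the groups without zeros over a whole group. Over all genes tested, 13.4% stood higher and 11.3% lower in each K15SKO library than in any MyoCre library. Why Pvalb and Myh1 were listed at 0 was not tested. The median of the 11 markers against the MyoCre mean was −1.09, −0.71 and 0.08 on the log2 scale in K15SKO 1 to 3, and −0.12 to 0.19 in the MyoCre libraries. The median of 11 slow fibre markers was 2.41, 0.35 and 3.05 in K15SKO 1 to 3 and −1.66 to 0.97 in MyoCre. The part of fibre type in the Prkag3 difference was not tested.

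Prkag2, the gene of gamma2, a larger isoform with a long N-terminal extension that is well known in the heart, spans chromosome 5 from 24862744 to 25100642 (minus strand). It measured 7.51, 7.32 and 7.28 FPKM in MyoCre 1 to 3, against 4.09, 3.66 and 7.48 FPKM across K15SKO 1 to 3. The MyoCre libraries lay close together, K15SKO 1 and 2 stood at 55.5% and 49.6% of their mean, and K15SKO 3 stood within their range. The difference was −0.52 (SE 0.23, 95% interval −1.06 to 0.03, limma adjusted p = 0.310, exact two-sided permutation p = 0.3). Without K15SKO 3 it was −0.78 (SE 0.09, limma adjusted p = 0.00786). GENCODE lists 10 transcripts of this gene, and the gene-level value does not separate the long from the short forms.

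Prkag1, the gene of the widely expressed gamma1, lies on chromosome 15 from 98812797 to 98831521 (minus strand). It measured 31.4, 29.7 and 34.5 FPKM in MyoCre 1 to 3, against 35.3, 31.4 and 39.3 FPKM across K15SKO 1 to 3. The groups overlapped, and the difference was 0.14 (SE 0.12, 95% interval −0.16 to 0.44, limma adjusted p = 0.521).

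Prkag3 held 59.2% to 64.2% of the gamma family FPKM in MyoCre and 63.2%, 72.1% and 62.9% in K15SKO 1 to 3, which overlapped. Prkag1 held 28.7% to 33.7% in MyoCre and 33.0%, 25.0% and 31.1% in K15SKO. Prkag2 held 7.75%, 7.08% and 7.10% in MyoCre and 3.82%, 2.91% and 5.93% in K15SKO, and this was the single isoform share whose groups did not overlap. The log2 ratio of Prkag2 over Prkag1 was −2.11 ± 0.12 in MyoCre and −2.87 ± 0.41 in K15SKO (SD, n = 3 each), also with no overlap and a difference of −0.76. In K15SKO 3 this ratio was −2.39, against −2.25 in MyoCre 3, so the separation there was narrow. The Prkag2 level itself, 7.48 FPKM in K15SKO 3, lay within the MyoCre range. Prkag1 and Prkag3 stood above their MyoCre ranges in that library, at 39.3 and 79.4 FPKM. The log2 ratio of Prkag3 over Prkag1 was 0.95 ± 0.18 and 1.16 ± 0.32, with overlap, a difference of 0.21 that was 0.02 without K15SKO 2. Summed gamma levels were 96.9, 103 and 103 FPKM in MyoCre and 107, 126 and 126 FPKM in K15SKO, so the gamma sum stood higher in each K15SKO library while the alpha sum stood lower.

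Stk11 encodes LKB1, the tumour suppressor kinase that phosphorylates AMPK and its relatives, and lies on chromosome 10 from 80115803 to 80130682 (plus strand). It measured 58.4, 55.2 and 66.3 FPKM in MyoCre 1 to 3, against 52.1, 47.8 and 67.7 FPKM across K15SKO 1 to 3. The K15SKO libraries held both the lowest and the highest of the 6 values. The difference was −0.11 (SE 0.16, 95% interval −0.50 to 0.28, limma adjusted p = 0.692). When libraries were rescaled by muscle fibre markers it was 0.11, with the median of all genes at 0.18, and so −0.07 relative to that median.

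The order of mean levels in MyoCre was Prkab2, Prkaa2, Prkag3, Stk11, Prkag1, Prkag2, Prkab1 and Prkaa1. Library ranges overlapped between Prkaa2 and Prkag3, between Prkag3 and Stk11, and between Prkab1 and Prkaa1, so those neighbours were not ordered beyond their spread between libraries. Within each of the 3 libraries Prkaa2 was above Prkag3, while the other pairs changed places. In K15SKO the order was Prkab2, Prkag3, Stk11, Prkaa2, Prkag1, Prkaa1, Prkab1 and Prkag2. There the ranges of neighbours overlapped except between Prkag1 and Prkaa1. Within each of the 3 libraries, however, the first 5 genes followed this order, and the last 3 changed places among libraries. Prkaa2 had moved from the second to the fourth place by mean level. Prkag2, above Prkab1 and Prkaa1 in MyoCre, was below both in K15SKO 1 and 2 and above both in K15SKO 3.

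In the limma fit over 11607 genes, 6 genes (0.0517%) had an adjusted p under 0.05, 0.0172% as higher and 0.0345% as lower, and 0 of the 8 members were among them. At an unadjusted limma p under 0.05, Prkaa2 and Prkab2 stood lower and Prkag3 higher. Over all genes tested 8.12% were lower and 8.43% higher by that rule. The groups did not overlap for 2 of 8 members, 1 in each direction, against 24.7% of all genes, 11.3% lower and 13.4% higher. The median difference over the 8 members was −0.02, as it was over all genes tested. These counts are a description of the members beside all genes.

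**Figure D3:**
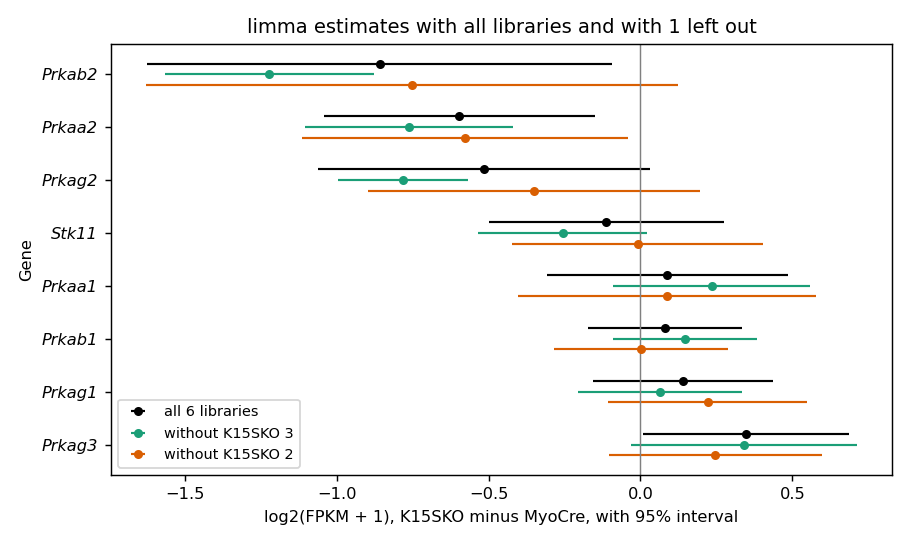
limma differences of K15SKO from MyoCre on the log2(FPKM + 1) scale with 95% intervals for the 8 genes, with all 6 libraries (black), without K15SKO 3 (green) and without K15SKO 2 (orange). Without K15SKO 3 the intervals of Prkab2, Prkaa2 and Prkag2 are narrower and lie wholly below 0. With all 6 libraries those of Prkab2 and Prkaa2 already lie below 0, and that of Prkag2 crosses it.

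The K15SKO libraries differed among themselves more than the MyoCre libraries did. No label gives a reason to drop K15SKO 3. Without it, 3 members passed an adjusted p of 0.05 with limma, all lower, namely Prkaa2, Prkab2 and Prkag2. In that fit 24.2% of 11652 genes passed, and 13.2% of all genes passed as lower, so passing was common. The same 3 members passed when limma weighted the libraries by their spread, which gave K15SKO 3 a weight of 0.20 and MyoCre 1 a weight of 2.43. By that rule 20.7% of all genes passed, and 9.94% passed as lower. At an unadjusted limma p under 0.05, no member was called without MyoCre 2 or without MyoCre 3. Calls were fewer over all genes there too. Of 11653 genes, 422 were higher and 467 lower without MyoCre 2, and 620 higher and 422 lower without MyoCre 3. With all libraries 978 of 11607 were higher and 942 lower.

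A set of muscle fibre transcripts also varied between libraries. The set leaves out Myh1, Myh2 and Myh7 of the 10 fibre markers listed. Its members Tnnc2, Actn3, Pygm, Casq1 and Mylpf are also among the fast fibre markers, so it leans to fast fibres. Myh2, left out, stood at 606%, 232% and 443% of its MyoCre mean in K15SKO 1 to 3, and Myh7 at 397%, 53.1% and 843%. Myh1 was listed at 0 there. The mean log2 FPKM of 7 fibre markers (Des, Ttn, Tnnc2, Actn3, Pygm, Casq1 and Mylpf) was 0.47 and 0.41 below the MyoCre mean in K15SKO 1 and 2, and 0.21 above it in K15SKO 3. Prkab2 was lower than the MyoCre mean by 1.37, 1.07 and 0.13 in K15SKO 1 to 3, and Prkaa2 by 0.89, 0.63 and 0.27. The markers did not move together, since Pygm stood at 39.7% and 48.6% of its MyoCre mean in K15SKO 1 and 2, about as low as Prkab2, and Des at 211% and 179%. The part of fibre content in the Prkab2 and Prkaa2 differences was not tested. When each library was rescaled by those markers, a choice made after seeing the data, the median of all genes moved to 0.18. Prkab2 then differed by −0.64 (limma adjusted p = 0.506), which is −0.81 relative to that median. Prkaa2 and Prkag2 differed by −0.55 and −0.51 relative to it, Prkag3 by 0.39 and Stk11 by −0.07. Of the 1920 genes at an unadjusted p under 0.05, 978 were higher and 942 lower. With the marker rescaling the split was 664 higher and 336 lower, and with quantile normalization 778 higher and 1248 lower.

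**Figure D4:**
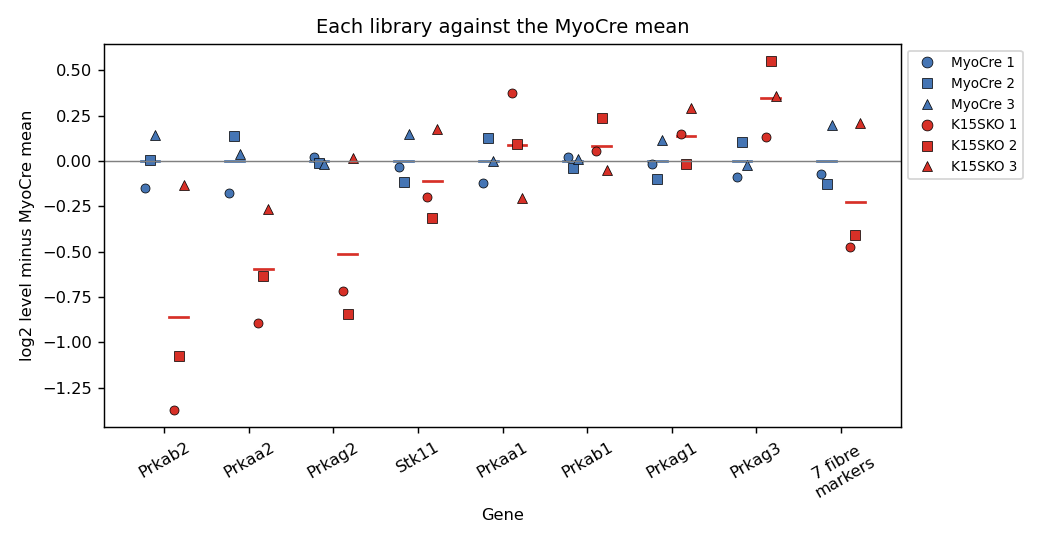
log2 level of each gene in each library minus the MyoCre mean (log2(FPKM + 1) for the genes, mean log2 FPKM for the 7 fibre markers), with symbols for replicates and lines at group means. Prkab2 lies 1.37 and 1.07 below the MyoCre mean in K15SKO 1 and 2 and 0.13 below it in K15SKO 3. The marker mean joins genes that differ in direction.

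The genes whose levels followed Prkaa2 most closely over the 6 libraries were Eif3e (Pearson r = 0.997), Gosr1 (0.996), Mecom (0.996), Bmpr1a (0.995) and Pum2 (0.994). So many genes shared this pattern that 435 had an r above 0.95 with it. Among the members, Prkab2 had an r of 0.96 and Prkag2 of 0.87 with Prkaa2, Stk11 of 0.58, and Prkag1, Prkag3, Prkaa1 and Prkab1 were between −0.59 and −0.27. The closest to Prkag3 were Plekhg3 (0.988), Retsat (0.970), Ccbl1 (0.965), Hnrnpd (0.960) and Fam3c (0.958), and 8 genes were above 0.95. These values describe 6 libraries of 2 groups, between which depth and tissue makeup also varied.

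Around AMPK, 9 lists held 91 gene symbols other than the members, of which 78 were tested. The 91 include both the older and the newer symbol of 2 adenylosuccinate synthase genes (Adssl1 and Adss1, Adss and Adss2), each of which entered the test once. None passed over all genes with limma, where adjusted p ran from 0.246 to 0.991. At an unadjusted p under 0.05, 15 of the 78 (19.2%) were lower and 3 (3.85%) higher, beside 8.12% and 8.43% of all genes. These shares over all genes also stand beside the counts of the single lists that follow. The median difference of the 78 was −0.22, beside −0.02 over all genes, and by library the medians were −0.40, −0.37 and 0.01 in K15SKO 1 to 3.

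Upstream of AMPK, 0 of 7 tested genes were called at an unadjusted p under 0.05. Cab39, the MO25 scaffold that activates LKB1, measured 101, 101 and 100 FPKM in MyoCre 1 to 3, against 69.7, 77.9 and 107 FPKM across K15SKO 1 to 3, the order of the K15SKO libraries also seen for Prkab2. Strada, the pseudokinase partner of LKB1, was at 6.76 ± 0.67 and 8.31 ± 2.17 FPKM (SD, n = 3 each). Map3k7, the kinase TAK1, stood at 22.0 ± 1.63 and 19.1 ± 0.69 FPKM, and its groups did not overlap (limma adjusted p = 0.345).

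Of 8 tested kinases related to AMPK and activated by LKB1, 1 was higher and 1 lower at an unadjusted p under 0.05. Over all genes 8.43% were higher and 8.12% lower by that rule. Sik1, the salt-inducible kinase that is induced by cAMP, measured 2.30, 1.84 and 2.18 FPKM in MyoCre 1 to 3, against 5.08, 5.32 and 3.63 FPKM across K15SKO 1 to 3 (log2 difference 0.86, SE 0.15, limma adjusted p = 0.246). Sik2 stood the other way, at 6.29, 9.53 and 7.68 FPKM in MyoCre against 2.93, 2.83 and 4.67 FPKM across K15SKO (log2 difference −0.99, SE 0.20, limma adjusted p = 0.248). For both kinases all K15SKO libraries lay outside the MyoCre range, with K15SKO 3 the nearest to it. Sik2 is abundant in fat, and the summed adipocyte markers were 434 to 1165 FPKM in MyoCre and 187 to 249 FPKM in K15SKO. Of the 10 markers 9 were lower in each K15SKO library than in any MyoCre library, beside 11.3% of all genes tested. None was at 0 in a group. The part of fat transcript in the Sik2 difference was not tested.

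AMPK substrates of growth control, autophagy and mitochondria held the most unadjusted calls, with 6 of 13 tested genes lower and 1 higher. Over all genes 8.12% were lower and 8.43% higher by that rule. The median of the list was −0.41, and by library it was −0.63, −0.53 and −0.02 in K15SKO 1 to 3. Ulk1, the kinase that starts autophagy and that AMPK phosphorylates, measured 32.7, 33.1 and 42.9 FPKM in MyoCre 1 to 3, against 12.2, 14.3 and 25.8 FPKM across K15SKO 1 to 3 (log2 difference −1.08, SE 0.28, limma adjusted p = 0.269). Flcn, folliculin, which works with the AMPK-binding protein Fnip1 at the lysosome, was at 34.2 ± 3.70 and 22.3 ± 5.07 FPKM (SD, n = 3 each, limma adjusted p = 0.272). Foxo1, a transcription factor of fasting and atrophy, was at 4.59 ± 1.15 and 2.48 ± 0.89 FPKM. These 3 genes stood lower in each K15SKO library than in any MyoCre library. Armc10, a mitochondrial protein phosphorylated by AMPK, stood higher at 3.22 ± 0.64 against 2.10 ± 0.40 FPKM.

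For lipid and sterol substrates, 2 of 7 tested genes were lower at an unadjusted p under 0.05, beside 8.12% of all genes. Acaca, the acetyl-CoA carboxylase of lipogenic tissue that AMPK inhibits, measured 4.90, 5.71 and 2.25 FPKM in MyoCre 1 to 3, against 1.28, 1.73 and 1.38 FPKM across K15SKO, beside the lower fat markers given above. Mlycd, malonyl-CoA decarboxylase, which removes the product of that carboxylase, was at 68.7 ± 2.50 FPKM in MyoCre against 28.7, 47.5 and 71.5 FPKM across K15SKO 1 to 3, so that K15SKO 3 lay within the control range.

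Of 8 tested glucose and glycogen substrates 2 were lower at an unadjusted p under 0.05, beside 8.12% of all genes. Txnip, which AMPK marks for degradation and which holds back glucose uptake, measured 324, 259 and 377 FPKM in MyoCre 1 to 3, against 138, 210 and 223 FPKM across K15SKO 1 to 3 (log2 difference −0.76, SE 0.23, limma adjusted p = 0.272). Tbc1d4, the Rab GTPase-activating protein AS160 of glucose transporter traffic, overlapped, at 9.42 ± 1.58 and 7.52 ± 3.88 FPKM (SD, n = 3 each). Among transcription factors and cofactors under AMPK, 1 of 9 was lower, the clock repressor Cry1, at 6.81 ± 0.66 and 4.83 ± 0.84 FPKM. Of 10 genes known to be raised by AMPK in muscle, 2 were lower and none higher by that rule, and the medians were −0.85, −0.86 and 0.25 in K15SKO 1 to 3. Of 3 sestrins none was called, and Sesn1 stood at 14.5 ± 3.10 and 13.4 ± 1.24 FPKM.

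Enzymes that set the adenine nucleotides read by the gamma subunit held 1 lower and 1 higher gene among 14 tested at an unadjusted p under 0.05. Over all genes 8.12% were lower and 8.43% higher by that rule. Ampd3, an AMP deaminase that lowers AMP, measured 2.75, 2.91 and 4.02 FPKM in MyoCre 1 to 3, against 7.83, 5.50 and 4.46 FPKM across K15SKO 1 to 3 (log2 difference 0.70, SE 0.21, limma adjusted p = 0.272), with no overlap. Ampd1, a far more abundant AMP deaminase transcript here, was at 563 ± 46.0 and 479 ± 86.5 FPKM (SD, n = 3 each), and its groups overlapped. Nt5c1a, the muscle AMP nucleotidase, was at 10.9, 12.2 and 16.2 FPKM in MyoCre against 2.44, 2.55 and 12.0 FPKM across K15SKO (limma adjusted p = 0.288). K15SKO 1 and 2 stood far below the controls there and K15SKO 3 among them, as for Prkab2 and Prkag2. Ak1, the main cytosolic adenylate kinase of muscle, which makes AMP from ADP, was at 1011 ± 50.4 and 787 ± 220 FPKM (SD, n = 3 each).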

How the data were processed

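RNA sequencing of total RNA from quadriceps gave 3 MyoCre and 3 K15SKO libraries. Per the submitters' processing notes, STAR, Cufflinks and Cuffdiff were used with the mm10 build; the sources used here do not give versions, annotation or strandedness. The authors deposited FPKM values for 23314 genes; the table's header does not name the unit, which was read from those tools and the values. FPKM keeps no counts, so absolute depth is unknown and no counting interval is given. Columns were matched to samples by their descriptions, and 0 columns belonged to no sample.

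Genes with a mean of at least 1 FPKM over the 6 libraries (11607, all 8 members among them) entered a limma fit (version 3.58.1, R 4.3.3) of log2(FPKM + 1) (eBayes with an intensity trend, two-sided, Benjamini-Hochberg adjustment over all genes tested, threshold 0.05), after tests on simulated data. Differences of low genes come out too small on that scale. Isoform shares and ratios came from FPKM as deposited and have no test. Relative depth is the inverse of the most common ratio to MyoCre 1 among values under 0.1 FPKM. Gene positions are from GENCODE M21 on GRCm38, the mm10 assembly, matched by gene ID without version. The genes annotated as overlapping a member were listed at no more than 0.581 FPKM in any library.

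The members and lists were chosen with earlier results of these data known. Named genes were the members, Klf15, up to 4 genes per pathway list with the smallest unadjusted p (a selection of those is printed) and the 5 genes most correlated with Prkaa2 and with Prkag3, leaving out predicted genes, pseudogenes and small RNAs by their names (Gm followed by digits, Rik, -ps, Mir, Snor). Ampd1 was added beside Ampd3. Alternatives were 2 other pseudocounts, 2 filters, 2 scalings, 2 eBayes settings, array weights, the replicate block, each library left out and, added later, fibre marker rescaling. Tables and plots were made in Python 3.11.15 with pandas 2.3.3, numpy 2.4.6, scipy 1.17.1 and matplotlib 3.10.9.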

Additional observations from a re-analysis of the deposited data

How the results depend on the processing

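The sign of the difference was the same in all 17 alternatives for Prkaa2, Prkab1, Prkab2, Prkag1, Prkag2 and Prkag3, and in 16 for Prkaa1 and Stk11. The 2 filters, the 2 eBayes settings and the replicate block leave the difference itself unchanged, so the sign could not turn there. With 1 library left out Prkaa1 ran from −0.055 without K15SKO 1 to 0.23 without K15SKO 3, and Stk11 was at 0.11 with fibre marker rescaling, which moved the median of all genes to 0.18, so that Stk11 was at −0.07 relative to it. The count of all genes past the threshold, 6 with all libraries, was 3 with no filter, 2398 with array weights, and 3 to 2815 with 1 library left out, the highest without K15SKO 3. It was 3 without MyoCre 1 and 3 without MyoCre 2. The replicate block gave 3 genes and 0 members past the threshold. Deviations of same-numbered libraries from their group means correlated at 0.0024, 0.085 and 0.094. MyoCre 1 correlated slightly better with K15SKO 2 (0.0066), and each other library correlated best with its own number. With 3 libraries a group, such deviations cannot tell whether same-numbered libraries were paired. The count of members past the threshold, 0 with all libraries, was 3 with array weights and 0 to 3 with 1 library left out. Members at an unadjusted p under 0.05 numbered 3 with all libraries, 1 with fibre marker rescaling and 0 to 3 with 1 library left out. Calls by that rule over all genes were also fewer without MyoCre 2 or MyoCre 3, as given above. Tested pathway genes by that rule numbered 18, 47 with array weights, and 10 to 47 with 1 library left out. The highest again came without K15SKO 3. The cause of these shifts was not tested. The isoform log2 ratio differences kept their sign in every alternative run, of which the replicate block leaves them unchanged by construction. With 1 library left out they ran from −1.05 to −0.39 for Prkaa2 over Prkaa1, −1.41 to −0.72 for Prkab2 over Prkab1, −0.997 to −0.64 for Prkag2 over Prkag1 and 0.02 to 0.32 for Prkag3 over Prkag1. FPKM does not give the depth behind the low members Prkaa1, Prkab1 and Prkag2.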
